A study of Mus musculus with 108 samples.

Results

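Zfp97 and Wif1 are 2 of the 53465 genes in the deposited table of expected counts. They were chosen on their values in the cerebellum: apart from Cul3 itself, they were the only genes past the threshold when the genotype p-values of the 3 cerebellar ages were combined. The animals were Cul3+/- mice (HET), which carry a 1-bp frameshift insertion in exon 6 made with CRISPR/Cas9, and wild-type (WT) mice. The mutant line descends from 1 heterozygous founder bred to C57BL/6N mice, a strain the sample labels spell C56Bl/6N, so the allele was not compared with a second line. RNA came from the cerebral cortex (CX), the hippocampus (HIP) and the cerebellum (CB) at E17.5 in the embryo, at postnatal day 7 (P7) and in the adult (P35 in the labels). At E17.5 and at P7 there were 6 WT and 6 HET mice. Of the adults, 5 WT and 5 HET mice were used, because mice P35_22 and P35_23 are given opposite genotypes by the labels and by the study's supplementary table. This left 34 mice and 102 of the 108 libraries, with all 3 regions from each mouse and deposited totals between 15126114 and 44411282 reads per library. Sex was not among the labels used here.

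Wif1 encodes Wnt inhibitory factor 1, a secreted protein that binds Wnt ligands outside the cell and keeps them from their Frizzled and Lrp receptors. In the developing brain Wnt signals pattern the midbrain, the cerebellum and the hippocampus, and secreted inhibitors of several families limit how far the signal reaches. Zfp97 encodes a zinc finger protein of the large mouse family in which a KRAB domain, which recruits the corepressor Trim28, is joined to an array of C2H2 fingers that bind DNA. Genes of this family arose by repeated local duplication, so that neighbours can be nearly identical. Cul3, the mutated gene, encodes the scaffold of a ubiquitin ligase that takes its substrates through BTB-domain adaptor proteins.

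The sequence of Zfp97 bears directly on its counts. The gene (ENSMUSG00000095990, GRCm38 chromosome 17, 17121415 to 17146831, plus strand) has 1 annotated transcript of 2684 bases in 4 exons. The first tested gene before it is Zfp960 (17064113 to 17089628, plus strand), 31787 bases away, and its transcript aligned to that of Zfp97 over 2655 bases without a gap, with 33 differences, or 98.8% identity. Of the 2535 windows of 150 bases (the read length of the study) in the Zfp97 transcript, 1399, or 55.2%, also occur letter for letter in a transcript of Zfp960, and none occurs in any other annotated gene. A coding stretch of 120 bases is shown for both genes because it holds 18 of those 33 differences, which stand in capitals. A read that covers such a difference can tell the genes apart, and with it the pair it belongs to. The libraries were sequenced as pairs of reads, and the share of pairs without any difference was not computed. For Zfp97 the stretch is chr17:17145465-17145584 and for Zfp960 it is chr17:17088250-17088369, both on the plus strand.
Zfp97: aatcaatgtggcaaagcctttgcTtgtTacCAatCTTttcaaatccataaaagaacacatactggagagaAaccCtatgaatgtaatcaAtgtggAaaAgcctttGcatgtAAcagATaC
Zfp960: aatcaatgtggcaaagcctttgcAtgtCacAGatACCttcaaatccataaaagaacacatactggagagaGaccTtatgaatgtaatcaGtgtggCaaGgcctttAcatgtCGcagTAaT

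The deposited counts show the same thing. In 101 of the 102 libraries the Zfp97 count was not a whole number, which is how RSEM writes reads that it divides between genes, and the counts ran from 36.87 to 276.3 with a median of 111.7. Wif1 (ENSMUSG00000020218, GRCm38 chromosome 10, 121033960 to 121100650, plus strand) had whole counts in all 102 libraries, from 1 to 344 with a median of 39, and no 150-base window of its 3 transcripts was found in another gene. Levels are given below as CPM, the count as a share of the total of its library after TMM scaling over the 102 libraries, and the main results on Zfp97 are given also for the summed counts of Zfp97 and Zfp960, to which shared reads add wherever they were assigned. Summed levels of marker lists are CPM of the deposited library total, without TMM scaling.

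The bases upstream of both starts are shown because both members were higher in the same mutant tissue. They come from the RefSeq promoter table (GRCm38.p6), which holds both genes, and end before the annotated gene start. In capitals are matches, on either strand, to a CCAAT box (CCAAT), a GC box (CCGCCC), an E-box (CACGTG), an AP-1 site (TGACTCA), an antioxidant response element (TGACNNNGC) or a TCF/LEF site (CTTTG followed by 2 bases that are each A or T). The Zfp97 stretch is chr17:17121133-17121382 and the Wif1 stretch chr10:121033754-121033959, both on the plus strand.
Zfp97: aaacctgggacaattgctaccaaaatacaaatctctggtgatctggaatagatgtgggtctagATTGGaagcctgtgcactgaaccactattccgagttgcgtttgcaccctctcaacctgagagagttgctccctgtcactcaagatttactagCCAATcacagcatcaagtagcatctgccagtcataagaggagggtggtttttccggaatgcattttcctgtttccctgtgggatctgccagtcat
Wif1: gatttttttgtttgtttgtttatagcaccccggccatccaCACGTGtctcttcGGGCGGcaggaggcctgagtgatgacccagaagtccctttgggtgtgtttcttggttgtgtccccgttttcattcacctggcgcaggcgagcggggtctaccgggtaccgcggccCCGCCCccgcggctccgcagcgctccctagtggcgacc
The 250 bases before the RefSeq start of Zfp97 held 2 CCAAT boxes, a motif found in 33.8% of the 32851 promoters of the table over the same length, and none of the others. The 250 bases before the RefSeq start of Wif1 held 2 GC boxes (in 32.7% of promoters) and 1 E-box (in 6.02%). No TCF/LEF site (14.8% of promoters), AP-1 site (4.46%) or antioxidant response element (10.2%) was found in either window. The GC content was 46.8% for Zfp97 and 62.8% for Wif1, against a median of 52.4% over the table.

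Before the members were described, the genotype labels and tissues were checked. Cul3 was lower in HET than in WT mice in all 9 period-by-region datasets, by 0.74 to 0.99 on the log2 scale, and its groups did not overlap in any of them. In the 6 libraries of both mice left out, Cul3 lay on the side of the labels' genotype. It was also the 1 gene that passed an adjusted p of 0.1 in each dataset in the edgeR quasi-likelihood test with Benjamini-Hochberg adjustment over all genes tested. The summed level of 7 markers of cerebellum identity was 809.7 to 3280 CPM in CB and at most 89.9 CPM in CX and 416 CPM in HIP, while 6 forebrain markers summed to 3.37 to 44.4 CPM in CB and to at least 211.6 CPM in CX and 252 CPM in HIP.

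In the cerebellum both members were higher in Cul3+/- mice than in WT mice at all 3 ages. These contrasts chose the genes, so their values are a description and carry no test, and in bulk tissue more cells of a type and more RNA per cell cannot be told apart. At E17.5, Zfp97 ranged from 2.25 to 3.38 CPM in WT (median 2.88) and from 2.45 to 4.03 CPM in HET (median 3.697). These groups overlapped, with 4 of 6 HET libraries above the highest WT library. At P7 it was 1.37 to 1.81 CPM in WT (median 1.51) and 1.85 to 3.13 CPM in HET (median 2.45), so that every HET library exceeded every WT library. In the adult the 5 WT libraries stood at 1.32, 1.98, 1.67, 1.94 and 2.43 CPM. The 5 adult HET libraries stood at 2.96, 3.07, 3.10, 3.05 and 3.08 CPM, above all WT libraries. Their SD was 0.0557 CPM, against 0.410 CPM in WT. Mouse P35_22, left out here and HET by the labels, had 2.68 CPM, below these 5 HET libraries. The log2 fold changes were 0.30 ± 0.14 (SE, n = 6 and 6) at E17.5, 0.71 ± 0.14 (n = 6 and 6) at P7 and 0.68 ± 0.14 (n = 5 and 5) at P35.

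Wif1 was higher in HET cerebella by 0.16 ± 0.15 (SE) at E17.5, 0.37 ± 0.089 at P7 and 0.56 ± 0.12 at P35 on the log2 scale. At E17.5 the WT libraries ran from 2.39 to 4.05 CPM (median 2.83) and the HET libraries from 2.29 to 4.16 CPM (median 3.31), with nearly the same range. At P7 the WT libraries ran from 5.28 to 7.61 CPM (median 6.87) and the HET libraries from 7.88 to 9.30 CPM (median 8.67), and the groups were separate. In the adult the WT libraries stood at 3.35, 3.75, 3.02, 4.04 and 3.60 CPM. The adult HET libraries stood at 4.76, 5.08, 5.18, 4.82 and 6.85 CPM, again above all WT libraries, with replicate 6 apart from the other 4. At an adjusted p of 0.1 the cerebellar contrasts called 0.00568% of genes at E17.5, 0.0057% at P7 and 0.00584% at P35, which in each case is Cul3 alone. Every HET library lay above every WT library for 0.125% of genes at P7 and for 2.03% at P35, a larger background in the adult.

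**Figure D1:**
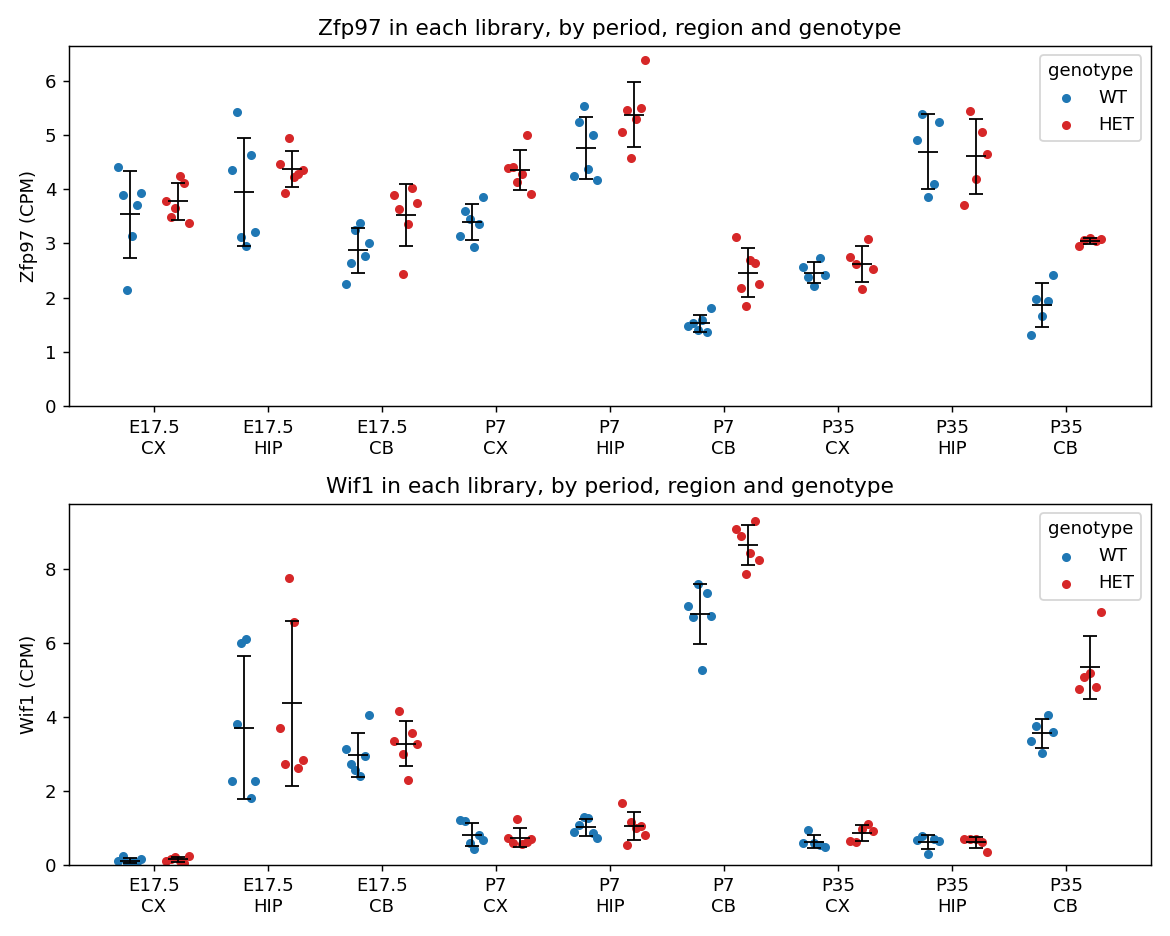
Level of Zfp97 (upper panel) and Wif1 (lower panel) in CPM (vertical axis) in each of the 102 libraries, by period and region (horizontal axis) and genotype (blue WT, red HET), with bars at the mean ± SD. The WT and HET points of both genes are separate in CB at P7 and P35, and those of Zfp97 also in CX at P7.

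The choice rested on Fisher's combination of the p-values of the 3 cerebellar contrasts. It covered the 3127 genes, of 15872 tested at all ages, whose change had the same sign each time. The adjusted combined p was 8.53e-23 for Cul3, 0.00139 for Zfp97 and 0.0250 for Wif1. Just outside the threshold of 0.1 were Tmem204, which encodes a transmembrane protein of endothelial cells, at 0.105 and Cp, which encodes the copper-binding ferroxidase ceruloplasmin, at 0.139. These values chose the members and are not evidence for them.

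With the reads of Zfp97 and Zfp960 added together, the cerebellar difference stayed above 0 at each age and was smaller than that of Zfp97 alone. The summed counts differed by 0.22 ± 0.097 (SE) at E17.5, 0.57 ± 0.11 at P7 and 0.45 ± 0.10 at P35 on the log2 scale. Zfp960 by itself, as the authors' program assigned its reads, differed by 0.14 ± 0.15, 0.45 ± 0.15 and 0.25 ± 0.11. At P7, 5 of 6 HET cerebella stood above all WT cerebella for Zfp960, and in the adult 3 of 5. The other tested genes nearest in sequence gave values closer to 0. BC002059, a lincRNA gene whose transcript is 84.5% identical to that of Zfp97 over 1564 bases, gave -0.067 ± 0.069, 0.069 ± 0.080 and 0.13 ± 0.088 in CB. Gm10033, a transcribed pseudogene 74.9% identical over 2467 bases, gave 0.044 ± 0.087, -0.0078 ± 0.083 and -0.049 ± 0.058. The first tested gene after Zfp97, the lincRNA Gm6712 147612 bases away, gave -0.079 ± 0.16, 0.062 ± 0.17 and 0.18 ± 0.18.

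**Figure D2:**
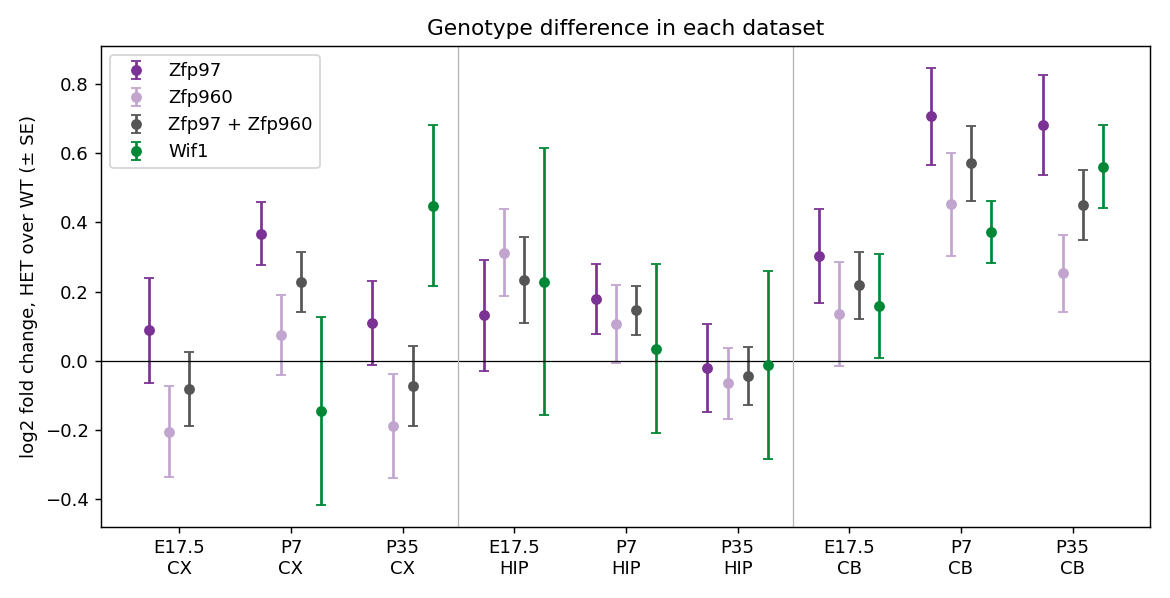
Log2 fold change of HET over WT (vertical axis, points ± SE) for Zfp97, Zfp960, their summed counts and Wif1 in each period and region (horizontal axis, 5 or 6 mice per genotype). In CB the sum of the near-identical pair lies between both genes, at 0.57 at P7 and 0.45 at P35, and Wif1 has no point in CX at E17.5, where it was not tested.

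The tested genes on either side of Wif1 gave values near 0. Lemd3, which encodes an inner nuclear membrane protein and lies 54628 bases before Wif1, differed in CB by 0.021 ± 0.048 (SE) at E17.5, 0.058 ± 0.040 at P7 and -0.020 ± 0.060 at P35. Tbc1d30, which encodes a Rab GTPase-activating protein 163170 bases after Wif1, differed by -0.025 ± 0.060, -0.021 ± 0.057 and -0.042 ± 0.051. No tested gene overlapped Wif1 or Zfp97.

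Markers of the choroid plexus, the secretory epithelium of the ventricles, moved with genotype in the P7 cerebella. The summed level of its 8 markers (Ttr, Folr1, Clic6, Kl, Kcne2, Prlr, Otx2 and Kcnj13) ran from 20.6 to 1637 CPM in WT at P7 (median 38.4) and from 32.9 to 3080 CPM in HET (median 1707). All 8 had a positive log2 fold change, with a median of 1.86 against 0.0035 over all genes, and none was called. The HET library with the fewest marker reads (32.9 CPM) had the lowest HET values of both genes, 7.88 CPM of Wif1 and 1.85 CPM of Zfp97, which lay above all WT libraries. The WT library with the most (1637 CPM) had 6.73 CPM of Wif1, below the WT median, and 1.81 CPM of Zfp97, the highest in WT. With the summed markers as a covariate, chosen after the data were seen, the P7 differences were 0.30 ± 0.11 (SE) for Wif1 and 0.52 ± 0.16 for Zfp97.

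At P35 the markers did not follow genotype in the same way. They ran from 20.8 to 2934 CPM in WT (median 31.4) and from 27.6 to 1946 CPM in HET (median 481), and 1 of 8 had a positive fold change. The WT library with the most marker reads (2934 CPM) had the highest WT level of Wif1, 4.04 CPM, and the HET library with the most (1946 CPM) had the highest of all, 6.85 CPM. The HET libraries with 38.4 and 27.6 CPM of the markers had 4.76 and 5.08 CPM of Wif1, above all WT libraries. With the covariate the adult differences were 0.53 ± 0.11 for Wif1 and 0.66 ± 0.13 for Zfp97, and at E17.5, where the markers reached 101 CPM in WT and 359 CPM in HET, they were 0.046 ± 0.12 and 0.28 ± 0.15. None of the 8 markers was at 0 in all libraries of a CB group.

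**Figure D3:**
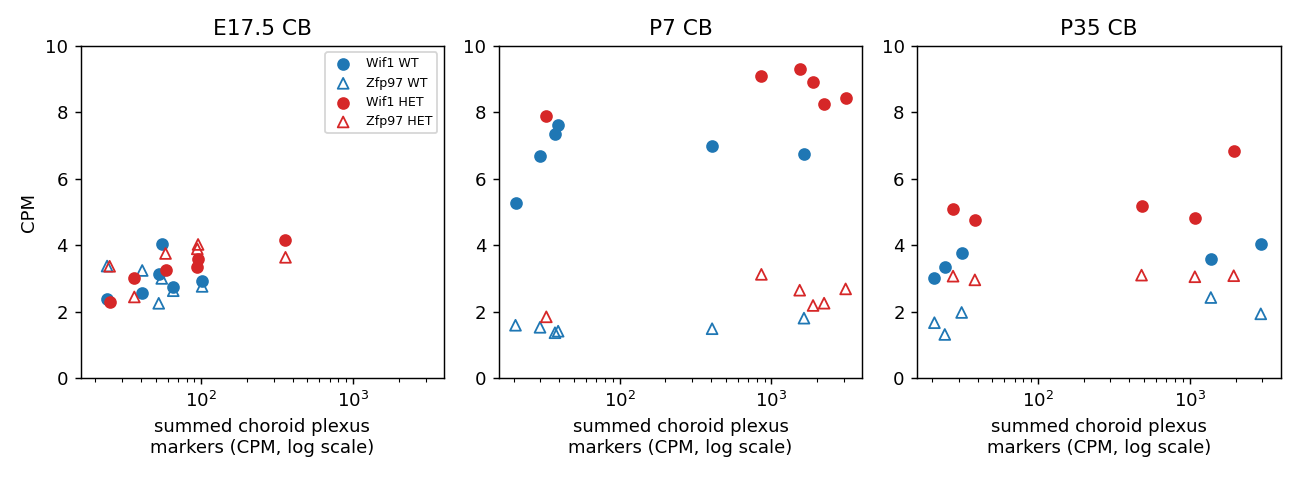
Wif1 (filled circles) and Zfp97 (open triangles) in CPM (vertical axis) against the summed CPM of 8 choroid plexus markers (horizontal axis, log scale) in each CB library, with WT in blue and HET in red and a panel per age. At P35 the HET libraries with the fewest marker reads (27.6 and 38.4 CPM) lie above all WT libraries for both genes.

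Markers of several other cell types also moved with genotype in CB. All 6 ependymal markers were positive in HET cerebella at P7, with a median log2 fold change of 0.81 and sums of 4.99 to 18.7 CPM in WT and 10.3 to 34.8 CPM in HET. All 8 meningeal markers were positive at E17.5, with a median of 0.93 and sums of 32.4 to 116 CPM in WT and 41.5 to 253 CPM in HET, and all 8 again at P7, with a median of 0.18. Of the 6 endothelial markers 4 were positive at P7, with a median of 0.12 and sums of 167 to 189 CPM in WT and 187 to 201 CPM in HET. The oligodendrocyte markers were all negative at E17.5 (4 tested, median -0.18) and at P7 (6 tested, median -0.18), and all 6 were positive at P35, with a median of 0.30 and sums of 2406 to 5163 CPM in WT and 4423 to 5478 CPM in HET. Purkinje cell and Bergmann glia markers had medians between -0.20 and 0.094 at the 3 ages. In the adult CB, 6 granule cell markers summed to 4825 to 5328 CPM in WT and 4389 to 4714 CPM in HET, and the 7 cerebellum identity markers, 3 of them in that list too, to 2669 to 3280 CPM and 2346 to 2658 CPM, without overlap in either case. The median log2 fold changes of these lists were -0.040 and -0.11. The share of all genes with every HET library below every WT library was not computed. edgeR and DESeq2 called no marker of the 12 lists in CB. At E17.5 an unadjusted p under 0.05 was reached by 2 of 6 tested choroid plexus, 2 of 8 meningeal, 1 of 6 Bergmann glia and 1 of 4 oligodendrocyte markers, against 3.5% of all genes. At P7 it was reached by 5 of 8 choroid plexus, 3 of 6 endothelial and 2 of 6 ependymal markers and by 1 marker each of the Bergmann glia, astrocyte and meningeal lists, against 4.89% of all genes. At P35 it was reached by 1 marker each of the Bergmann glia, astrocyte, endothelial, oligodendrocyte, granule cell and identity lists, against 14.4% of all genes. The part of these cells in the results on Zfp97 and Wif1 was not tested.

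Outside the cerebellum the genotype difference could be tested, since those libraries did not choose the genes, although they come from the same mice. Neither member was called in CX or HIP at any age by edgeR or DESeq2, where the background was 0.00603% of genes in CX and 0.00586% in HIP at E17.5, 0.00566% and 0.00563% at P7, and 0.00569% and 0.00584% at P35, again Cul3 alone. The lowest unadjusted p of either gene was that of Zfp97 in the P7 cortex. There the WT libraries ran from 2.93 to 3.86 CPM (median 3.40) and the HET libraries from 3.92 to 4.99 CPM (median 4.33), so that all 6 HET libraries exceeded all 6 WT libraries, as they did for 0.0736% of genes. The log2 fold change was 0.37 ± 0.092 (SE, n = 6 and 6), which ranked 9th of 17675 genes by p-value, with an unadjusted p of 0.00125 and an adjusted p of 0.900 in edgeR. For the summed counts of Zfp97 and Zfp960 it was 0.23 ± 0.086 (adjusted p = 0.900). In the P7 hippocampus Zfp97 ran from 4.17 to 5.54 CPM in WT and from 4.57 to 6.39 CPM in HET, a difference of 0.18 ± 0.10 on the log2 scale (adjusted p = 0.833).

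At the other ages the Zfp97 values outside CB were close between genotypes. The log2 fold changes were 0.088 ± 0.15 (SE) in CX and 0.13 ± 0.16 in HIP at E17.5, and 0.11 ± 0.12 in CX and -0.020 ± 0.13 in HIP at P35. Summing with Zfp960 turned the sign in CX at E17.5 (-0.082 ± 0.11) and at P35 (-0.072 ± 0.12). In E17.5 CX the deviations of WT and HET mice with the same replicate number were correlated (0.11 to 0.76). The same pairs of mice gave -0.26 to 0.58 in HIP and -0.024 to 0.43 in CB. Medians of the same-number pairs were 0.47 in CX, 0.34 in HIP and 0.29 in CB. Pairs with different numbers had medians of -0.094, -0.030 and -0.017. The main genotype fits had no block for such a structure. With the replicate number as a block in E17.5 CX, Zfp97 stayed uncalled (0.11 ± 0.14, adjusted p = 0.748), while the number of genes called in that dataset went from 1 to 55. With the prefix of the mouse names as the block, 1 gene was called.

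Wif1 was not different enough from its spread in any region outside CB to pass the test. In the adult cortex it stood at 0.48 to 0.94 CPM in WT (median 0.58) and 0.60 to 1.11 CPM in HET (median 0.90), so that HET exceeded WT by 0.45 ± 0.23 on the log2 scale (SE, adjusted p = 0.997), at fewer reads per library than in CB. The other values were 0.23 ± 0.38 in E17.5 HIP, -0.14 ± 0.27 in P7 CX, 0.035 ± 0.24 in P7 HIP and -0.012 ± 0.27 in P35 HIP. In E17.5 CX it did not pass the filter on low counts, with 0.0351 to 0.234 CPM in WT and 0.0364 to 0.223 CPM in HET, and a difference was not detectable at this depth.

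Taking 1 value per mouse, the mean of its CX and HIP log2 CPM (prior count 2), left 6 tests, 1 per gene and age. For Zfp97 at P7 the mean was 2.02 ± 0.15 (SD, n = 6) in WT and 2.29 ± 0.12 (n = 6) in HET, and 5 of 6 HET mice lay above all WT mice. The difference of 0.27 had an unadjusted p of 0.00433 in a two-sided exact permutation test over mice, where the smallest p the design allows is 0.00216. Adjusted by Benjamini-Hochberg over the 6 tests, the permutation p was 0.026. The CB values of these same mice chose Zfp97, and the adjustment does not cover that choice. Within genotype at P7, the r of Zfp97 was 0.60 between HIP and CB and 0.37 between CX and CB, so the test is not independent of the choice. With Zfp960 summed the difference was 0.19 and the exact p again 0.00433. Cell type markers differed between the same libraries too. In P7 HIP, 7 of 7 tested choroid plexus markers were positive (median log2 fold change 2.23, 4 at an unadjusted p under 0.05), with sums of 12.5 to 160 CPM in WT and 10.5 to 4459 CPM in HET, as were 6 of 6 ependymal markers (median 0.55, 5 under 0.05), with sums of 26.4 to 47.1 CPM and 39.7 to 82.8 CPM, against 5.05% of all genes under 0.05. In P7 CX, 0 of 5 tested oligodendrocyte markers were positive (median -0.38, 2 under 0.05), with sums of 139.7 to 184 CPM in WT and 116 to 156 CPM in HET, and 8 of 8 meningeal markers were (median 0.27, 0 under 0.05), with sums of 177 to 290 CPM and 156 to 391 CPM, against 3.22% of all genes under 0.05. With the choroid plexus covariate Zfp97 differed by 0.37 ± 0.095 (SE) in P7 CX and 0.18 ± 0.10 in P7 HIP, and the part of the other markers was not tested. For Zfp97 the differences at E17.5 and P35 were 0.15 (exact p = 0.327) and 0.029 (exact p = 0.770). For Wif1 they were 0.26 at E17.5 (exact p = 0.342), -0.061 at P7 (exact p = 0.725) and 0.21 at P35 (exact p = 0.254). At P35, with 5 mice against 5, the smallest possible p is 0.00794.

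The cerebellum was also where Wif1 was most abundant in WT mice after birth. Its WT level was highest in P7 CB (6.78 ± 0.81 CPM, SD, n = 6), followed by E17.5 HIP (3.71 ± 1.94), P35 CB (3.55 ± 0.39, n = 5) and E17.5 CB (2.97 ± 0.59). Lower stood P7 HIP (1.01 ± 0.23), P7 CX (0.814 ± 0.32), P35 CX (0.625 ± 0.18), P35 HIP (0.614 ± 0.19) and E17.5 CX (0.109 ± 0.073). In this order the gap to the next group was larger than the larger SD of the pair only after P7 CB, after E17.5 CB and after P35 HIP, and the other neighbours did not differ beyond their spread. Zfp97 had another order. It was highest in the hippocampus at P7 (4.76 ± 0.58 CPM), P35 (4.69 ± 0.69) and E17.5 (3.95 ± 0.999), intermediate in CX at E17.5 (3.54 ± 0.79) and P7 (3.39 ± 0.33), and lower in E17.5 CB (2.88 ± 0.41), P35 CX (2.47 ± 0.20), P35 CB (1.87 ± 0.41) and P7 CB (1.53 ± 0.16). Only P7 CX and P35 CX stood above the next group by more than the larger SD. Per kilobase of exon, WT Wif1 was at 2.79 CPM and WT Zfp97 at 0.572 CPM in P7 CB, while in E17.5 CX they were at 0.0448 and 1.32 CPM.

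Between E17.5 and P7, Wif1 in WT mice rose in CX and CB and fell in HIP. In the edgeR test the log2 change from E17.5 to P7 was 2.79 ± 0.37 in CX (adjusted p = 1.76e-06), 1.18 ± 0.12 in CB (1.34e-07) and -1.88 ± 0.31 in HIP (2.89e-05). From P7 to P35 it fell in CB by 0.92 ± 0.13 on the log2 scale (adjusted p = 3.19e-06), and the changes of -0.33 ± 0.30 in CX (adjusted p = 0.355) and -0.69 ± 0.35 in HIP (adjusted p = 0.103) were not called. Zfp97 fell in CB from E17.5 to P7 by 0.92 ± 0.14 (adjusted p = 1.43e-05), and then rose by 0.30 ± 0.15 from P7 to P35 (adjusted p = 0.0777). The later rise was no longer called without E17.5 replicate 3, 5 or 6, without any of P7 replicates 1 to 5, or without P35 replicate 2, 5 or 6 (0.19 to 0.30). In CX it fell by 0.43 ± 0.15 from P7 to P35 (adjusted p = 0.0199), and in HIP neither step was called (0.25 ± 0.15, adjusted p = 0.146, and 0.0032 ± 0.16, adjusted p = 0.989).

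These calls stood against a background in which most genes changed with age. From E17.5 to P7 the test called 81.9% of genes in CX, 78.0% in HIP and 71.2% in CB, and from P7 to P35 67.7%, 62.7% and 79.4%. A call by itself therefore says little about these genes. With Zfp960 added, the fall in CB from E17.5 to P7 (-0.79 ± 0.094, adjusted p = 7.31e-07) and the later rise (0.36 ± 0.10, adjusted p = 0.00297) were still called. In CX the earlier step was called instead of the later, with -0.44 ± 0.11 (adjusted p = 0.00106) from E17.5 to P7 and -0.00066 ± 0.11 (adjusted p = 0.997) from P7 to P35.

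**Figure D4:**
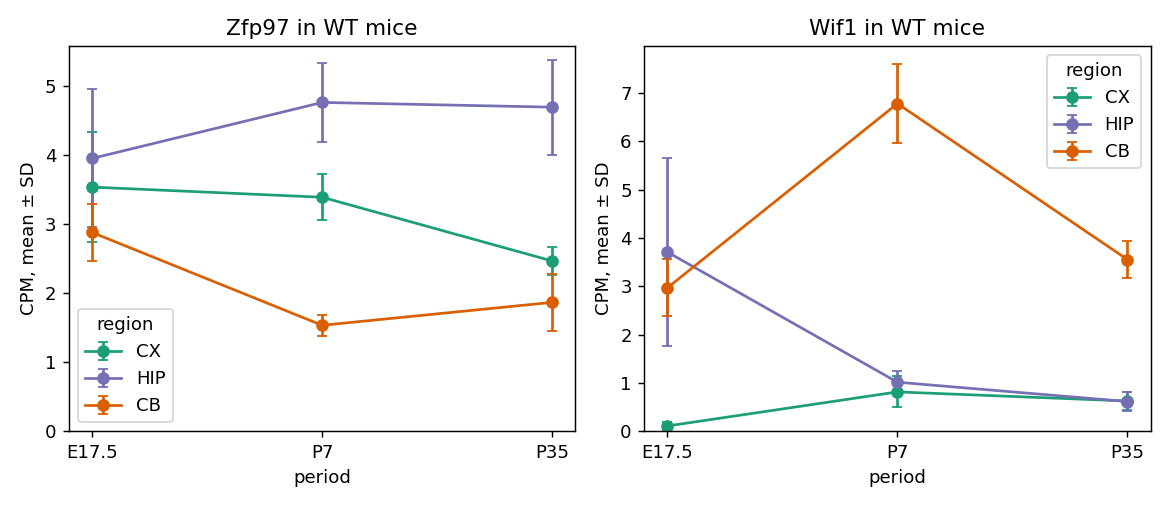
WT level of Zfp97 (left) and Wif1 (right) in CPM (vertical axis, mean ± SD, n = 6, or 5 at P35) at the 3 periods (horizontal axis) in each region. Wif1 in CB peaks at P7 with 6.78 CPM, the age at which Zfp97 in CB is lowest with 1.53 CPM.

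Regions of the same WT mice were compared with mouse as a block. Wif1 was higher in CB than in CX by 4.77 ± 0.44 (SE) at E17.5, 3.13 ± 0.21 at P7 and 2.496 ± 0.19 at P35 on the log2 scale (adjusted p = 9.12e-07, 1.39e-09 and 8.76e-08 in edgeR). It was higher in CB than in HIP by 2.81 ± 0.20 at P7 (adjusted p = 4.65e-09) and 2.55 ± 0.19 at P35 (adjusted p = 8.63e-08). At E17.5 HIP stood with CB rather than with CX: the CB minus HIP difference was -0.22 ± 0.32 (adjusted p = 0.614) and HIP exceeded CX by 4.99 ± 0.44 (adjusted p = 1.63e-06). HIP and CX did not differ by the test after birth (0.32 ± 0.23, adjusted p = 0.254, and -0.053 ± 0.22, adjusted p = 0.868).

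Zfp97 was lower in CB than in the other regions. The CB minus HIP difference was -0.43 ± 0.19 (SE) at E17.5 (adjusted p = 0.0847; -0.33, -0.30 and -0.37 and not called without the mouse of replicate 1, 2 or 5), -1.56 ± 0.085 at P7 (1.74e-10) and -1.32 ± 0.14 at P35 (2.97e-06). The CB minus CX difference was -0.24 ± 0.19 at E17.5 (adjusted p = 0.297), -1.09 ± 0.086 at P7 (1.18e-08) and -0.41 ± 0.15 at P35 (0.0224). HIP stood above CX by 0.47 ± 0.079 at P7 (adjusted p = 0.000186) and 0.91 ± 0.14 at P35 (0.000181), with 0.19 ± 0.19 at E17.5 (0.455). Without the mouse of CX replicate 3 the E17.5 difference of CB and CX was called (-0.41). Summed with Zfp960, the CB minus CX difference at E17.5 was -0.55 ± 0.11 and was called (adjusted p = 0.000742). Over all genes the calls were 46.5%, 61.7% and 49.5% at E17.5 for HIP against CX, CB against CX and CB against HIP, 57.0%, 82.9% and 78.2% at P7, and 51.5%, 75.4% and 75.1% at P35.

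The hippocampal level of Wif1 at E17.5 split by the prefix of the mouse names, whose meaning the labels do not give. The 4 mice named S3 had 5.99 and 6.10 CPM (WT) and 7.76 and 6.58 CPM (HET). The S2 mice had 2.27 to 3.82 CPM and the S4 mice 1.80 to 2.84 CPM, with 4 mice each, so that the S3 mice did not overlap the rest in either genotype. The share of all genes that split in this way was not computed, so the split is not shown to be particular to Wif1. In CB the same S3 mice were lowest in median, with 2.29 to 3.01 CPM against 2.73 to 4.16 CPM in S2 and 2.93 to 4.05 CPM in S4. With the prefix as a block, the genotype difference of Wif1 in E17.5 HIP was 0.23 ± 0.15 (SE, adjusted p = 0.604), against 0.23 ± 0.38 without it.

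A single marker list separated those hippocampi from the others. The 6 Purkinje cell markers, some of which hippocampal neurons also express, summed to 67.9 to 93.1 CPM in the S3 hippocampi and to 95.7 to 153 CPM in the others, without overlap. All other lists overlapped. The 6 forebrain markers summed to 710.6 to 991 CPM against 618 to 850 CPM, and the 8 choroid plexus markers to 14.8 to 403 CPM against 32.9 to 5292 CPM. The part of these cells in the split was not tested.

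**Figure D5:**
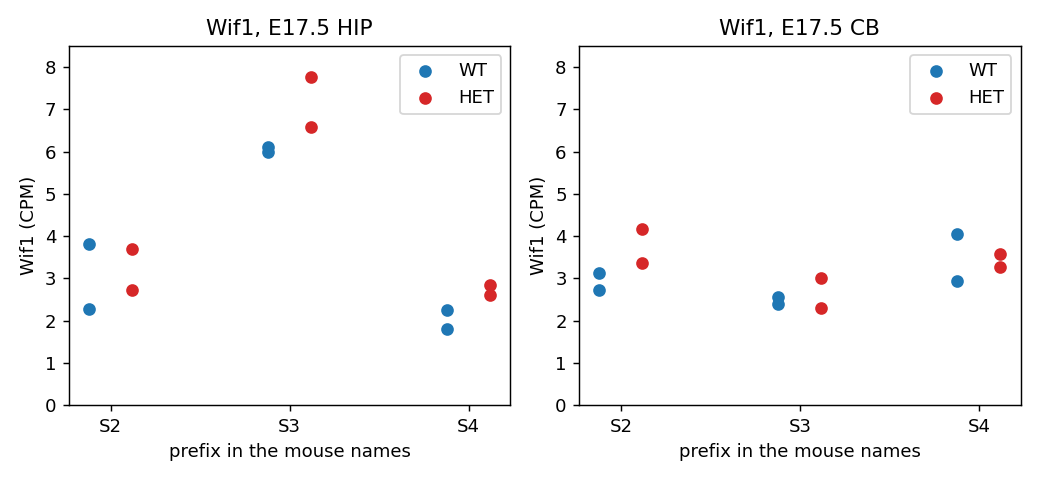
Wif1 in CPM (vertical axis) at E17.5 in HIP (left) and CB (right) by the prefix of the mouse names (horizontal axis, 2 WT mice in blue and 2 HET mice in red per prefix). In HIP the 4 S3 mice lie between 5.99 and 7.76 CPM and all others at or below 3.82 CPM.

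Pooled over the ages, mice that were high in 1 region were not in general high in another. Over the 34 mice, as deviations of log2 CPM from the mean of genotype and age, 6 relations were computed with permutation within those groups. For Wif1 in HIP and CB, Pearson's r was -0.56 (permutation p = 0.00311, adjusted over the 6 relations 0.0187) and Spearman's rho -0.54 (permutation p = 0.00327, adjusted 0.0196), and without the 2 farthest mice r was -0.70. The relation was weaker within name prefixes. Within genotype, age and name prefix r was -0.078 at E17.5 (n = 12) and -0.34 at P7 (n = 10), against -0.75 and -0.48 within genotype and age alone (n = 12 each). The adult mouse names have no prefix, and at P35 r within genotype was -0.064 (n = 10). For Zfp97 in CX and HIP r was 0.48 (permutation p = 0.0394, adjusted 0.118) and rho 0.45 (permutation p = 0.0231, adjusted 0.0693), and r was 0.40 without the 2 farthest mice. Within prefix this r was -0.37 at E17.5 and 0.73 at P7, against 0.52 and 0.76 within genotype alone. At P35 it was 0.18 within genotype. The other 4 relations had r between -0.15 and 0.17, rho between -0.13 and 0.11 and permutation p of at least 0.407, adjusted to at least 0.614. For Zfp97 those pooled values joined opposite signs by age. Within genotype, r was -0.62 at E17.5 and 0.60 at P7 for HIP and CB, and -0.41 and 0.37 for CX and CB. At P35 the values were 0.22 and -0.085. At P7 r was also positive for CX and HIP (0.76), so the values outside CB went with the CB values that chose the gene. These values by age were not tested.

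The 2 members did not track each other from library to library. In the 34 CB libraries the deviations of Zfp97 and Wif1 from their group means had r = 0.14, with 0.14 in CX and -0.060 in HIP, given as a description. The genes whose deviations in CB were most like those of Wif1, among 15872 tested at all ages, were Otx2 (r = 0.76), a homeobox gene and 1 of the 8 choroid plexus markers above, Eya1 (r = 0.75), a transcriptional coactivator, and Moxd1 (r = 0.74), a monooxygenase-like gene. For Zfp97 they were 0610010K14Rik (r = 0.64), 5530601H04Rik (r = 0.64) and Gm21994 (r = 0.60). Zfp960 was not close to it in CB, with r = 0.0012, against 0.34 in CX and 0.19 in HIP. Over the 9 WT means of period and region, which share libraries and depth, the genes most like Wif1 of 19808 were Gm9934 (r = 0.99), Sned1 (r = 0.97) and Ntn1 (r = 0.94), the last encoding the guidance cue netrin-1. Those most like Zfp97 were Btbd9 (r = 0.95), a BTB-domain gene, Dnah9 (r = 0.95), an axonemal dynein heavy chain, and Arhgap39 (r = 0.94). Gm9934 stood low in all 9 WT groups, with mean log2 CPM between -2.44 and -0.634, so its r rests on few reads.

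The other genes of the Wnt pathway list were then read in the same genotype fits, in which edgeR called Cul3 alone. Of 83 ligands, receptors, inhibitors, intracellular components and targets besides Wif1, 64 to 73 were tested in each dataset and 0 were called up or down by edgeR in any of the 9, with 1 to 9 per dataset at an unadjusted p under 0.05. In CB these were 1 of 73 at E17.5, 8 of 72 at P7 and 9 of 70 at P35, against 3.5%, 4.89% and 14.4% of all genes. In CX they were 1 of 64, 3 of 72 and 4 of 70, against 1.67%, 3.22% and 3.66% of all genes, and in HIP 1 of 70, 4 of 72 and 4 of 72, against 2.29%, 5.05% and 6.25%. DESeq2 called 1 of them, Dkk3, and only in the adult CB, where it called 200 genes in all. In CB the median log2 fold change of the list was 0.014 at E17.5, 0.030 at P7 and 0.0015 at P35, against 0.0025, 0.0035 and 0.00094 over all genes. Of the 13 other secreted inhibitors, which include the Sfrp, Dkk and sclerostin families, 8 were tested in CB at E17.5 and 9 at P7 and at P35. Their log2 fold changes ran from -0.25 to 0.42, from -0.16 to 2.16 and from -0.34 to 0.43. The value of 2.16 ± 0.89 (SE, adjusted p = 0.978) belongs to Sostdc1, which inhibits Wnt and BMP signals and is abundant in choroid plexus, in the libraries where the choroid plexus markers were also higher. Dkk3, a divergent member of the Dickkopf family, was at 0.26 ± 0.062 (adjusted p = 0.293) in the adult CB, and Sostdc1 there at -0.34 ± 1.25 (adjusted p = 0.900). Both genes were named after their values were seen. The 12 target genes, among them Axin2 and Lef1, had medians of 0.0031, 0.030 and 0.00061 in CB at the 3 ages.

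The genes through which KRAB zinc finger proteins act were not called either, in fits where edgeR called Cul3 alone. All 15 genes of the corepressor list, from Trim28 and the methyltransferase Setdb1 to the heterochromatin proteins Cbx1, Cbx3 and Cbx5, were tested in every dataset. edgeR and DESeq2 called 0 of them, where DESeq2 called between 1 (E17.5 HIP) and 200 (P35 CB) genes in all. At most 1 per dataset reached an unadjusted p under 0.05, against 1.67% (E17.5 CX) to 14.4% (P35 CB) of all genes. With so few genes called, 0 calls say little about these 15 genes. Their median log2 fold change in CB was 0.025 at E17.5, -0.0030 at P7 and 0.011 at P35, and single genes ran from -0.066 to 0.13, from -0.072 to 0.051 and from -0.29 to 0.16.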

How the data were processed

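Total RNA was ribodepleted, made into stranded libraries and sequenced as 150-base pairs on a HiSeq4000. According to the study's methods and processing notes, cutadapt 1.14, STAR 2.5.3a and RSEM 1.3 were used with GRCm38.p5 (mm10). The authors deposited expected counts, in which RSEM divides a read between similar genes, for 53465 genes in 108 libraries; 5.76% of the values are not whole, and they were rounded here. Genes passing filterByExpr (minimum count 10, minimum total 15) were scaled by TMM and fitted with the quasi-likelihood test of edgeR 4.0.16 (R 4.3.3): 1 fit per age and region for genotype, 1 per region for WT ages, and 1 per age for WT regions with mouse as a block. P-values were adjusted by Benjamini-Hochberg over all genes tested, with a threshold of 0.1. The study's factors of unwanted variation and sex term were not in these fits. Alternatives, including DESeq2 1.42.0 and RUVs with 3 factors, were run, and the fits were tested on simulated counts. Libraries held 15126114 to 44411282 reads, and counting error weighs most on Wif1 outside CB.

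Mice P35_22 and P35_23 were left out. The labels name separate mice of 1 line, so p-values measure the spread between these mice. Whether replicate numbers pair WT and HET mice was checked by the correlation of their deviations. All 6 pairs exceeded 0.1 in E17.5 CX (0.11 to 0.76) and not all did in any other dataset. The median of same-number pairs was above that of the other pairs in every dataset but P7 HIP (-0.064 against 0.0018). Symbols and positions come from GENCODE M21, in which 53274 of the IDs were found, and upstream sequences from RefSeq.

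The members and the gene lists were chosen with earlier results of these data known. Named genes are the members, Cul3, the first tested gene on each side, the 3 genes most like each member by each of 2 correlations, the 3 tested genes nearest to Zfp97 (by transcript, as no protein table was used here), called genes of the Wnt and KRAB lists, and secreted Wnt inhibitors as a group. Exact permutation p-values over mice are given unadjusted, and for Zfp97 at P7 also adjusted over the tests of both genes and all ages. Neither value accounts for the choice of the members with results known.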

Additional observations from a re-analysis of the deposited data

Results flagged for a closer look

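Of 36 groups of 5 or 6 libraries, 5 held a library far from the rest of its group, all for Wif1; chance alone flags about 1 group in 20. In P7 CX, HET replicate 3 had 1.22 CPM against 0.720 CPM for the next library. In P35 CX, WT replicate 2 had 0.936 CPM, with the next at 0.593 CPM. In P35 HIP, WT replicate 3 was low at 0.288 CPM (next 0.645 CPM) and HET replicate 6 at 0.348 CPM (next 0.622 CPM). In P35 CB, HET replicate 6 had 6.85 CPM (next 5.18 CPM), and without a single library the adult Wif1 difference in CB ran from 0.46 to 0.62.

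The libraries of the 2 mice left out of all comparisons were flagged where they lay above every adult WT library that was used. Mouse P35_22 had 3.37 CPM of Zfp97 in CX, 2.68 CPM of Zfp97 in CB and 5.14 CPM of Wif1 in CB. Mouse P35_23 had 4.08 CPM of Wif1 in CB and 0.933 CPM of Wif1 in HIP. The labels call P35_22 HET and P35_23 WT, and the level of Cul3 lay on the side of the labels in all 6 libraries. In P35_22 it was 97.8 CPM in CX, 97.6 CPM in HIP and 117 CPM in CB, within the range of the adult HET libraries of each region (92.98 to 99.5, 93.1 to 103 and 116.6 to 125 CPM). In P35_23 it was 201 CPM in CX, 200.9 CPM in HIP and 223 CPM in CB, against 163 to 202, 177 to 215 and 168 to 216 CPM in adult WT libraries. With the genotypes of the labels the adult differences in CB were 0.68 ± 0.13 (SE) for Zfp97 and 0.52 ± 0.10 for Wif1.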

How the results depend on the processing

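In CB all differences kept their sign under every alternative run. Without 1 library at a time Zfp97 ran from 0.24 to 0.40 at E17.5, 0.61 to 0.78 at P7 and 0.58 to 0.79 at P35, and Wif1 from 0.083 to 0.26, 0.31 to 0.41 and 0.46 to 0.62; the adult Zfp97 value moved to 0.45 when Zfp960 was summed. The cause of the changes below was not tested.

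Outside CB no genotype difference was called under any alternative, and these small values changed sign. With Zfp960 summed, Zfp97 was -0.082 in E17.5 CX, -0.072 in P35 CX and -0.077 per mouse at P35. With RUVs, Wif1 was -0.066 in E17.5 HIP and -0.091 in P7 HIP, where the replicate block gave -0.0035 and the choroid plexus covariate -0.051. With the genotypes of the study's table for both left-out mice, Zfp97 was -0.0052 in P35 CX and Wif1 0.16 in P35 HIP; with those of the labels, Zfp97 was 0.015 in P35 HIP. Leaving out 1 library gave Wif1 -0.015 to 0.42 (E17.5 HIP), -0.36 to 0.0041 (P7 CX), -0.16 to 0.16 (P7 HIP) and -0.19 to 0.13 (P35 HIP), and Zfp97 -0.0094 to 0.16 (E17.5 CX) and -0.091 to 0.045 (P35 HIP). Per mouse it gave Wif1 -0.16 to 0.015 at P7 and Zfp97 -0.023 to 0.078 at P35. The per-mouse Zfp97 difference at P7 stayed at an exact permutation p of 0.00866 or lower.

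For age, Zfp97 in CX from E17.5 to P7 was 0.16 in HET mice and -0.44 (called) summed, and from P7 to P35 -0.00066 summed, no longer called. In HIP the first step was 0.27 in HET mice (called) and -0.0094 summed, and the second -0.029 with upper-quartile scaling, -0.037 unfiltered, -0.18 in HET mice and -0.048 with the replicate block. In CB from P7 to P35 it was 0.25 with upper-quartile scaling, 0.30 with DESeq2 and 0.27 unfiltered, none called. Wif1 from P7 to P35 was 0.24 in HET CX, and in HIP -0.73 with upper-quartile scaling and -0.72 in HET mice, both called. Leaving out 1 library gave Zfp97 -0.23 to -0.046 (CX, first step), 0.18 to 0.36 (HIP, first step), -0.057 to 0.060 (HIP, second step) and 0.19 to 0.40 (CB, second step), and Wif1 -0.80 to -0.53 (HIP, second step).

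For region, Zfp97 at E17.5 was -0.018 (HIP minus CX) and -0.55 (CB minus CX, called) summed, and -0.38 (CB minus HIP, not called) unfiltered. In adult HET mice it was 0.19 for CB minus CX, and Wif1 -0.49 for HIP minus CX (called). Leaving out 1 mouse gave Wif1 -0.42 to 0.033 (E17.5, CB minus HIP) and -0.16 to 0.13 (P35, HIP minus CX), and Zfp97 -0.41 to -0.090 (E17.5, CB minus CX) and -0.54 to -0.30 (E17.5, CB minus HIP). Across regions of a mouse, without the 2 farthest mice r was 0.061 (CX and CB) and 0.046 (HIP and CB) for Zfp97 and -0.70 (HIP and CB) for Wif1.

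The number of genes called by genotype, 1 per dataset, depended on the model. In CX, HIP and CB, RUVs called 1, 58 and 11 genes at E17.5, 14, 140 and 65 at P7, and 33, 188 and 63 at P35; DESeq2 called 3, 1 and 2, then 2, 5 and 4, then 5, 4 and 200. In the adult, the labels' genotypes for the left-out mice gave 2, 1 and 2, and the table's gave 0, 0 and 0 (edgeR). The replicate block called 55 in E17.5 CX, 2 in P35 CX and 0 in P35 CB, and no filter 2 in P35 CX. Wif1 in E17.5 CX had 0.37 (adjusted p = 0.953) without the filter. Adding Xist as a covariate, chosen after seeing the data, changed no call.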

Other observations

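In the libraries of the mice left out, Zfp97 in HIP stood at 4.40 CPM in P35_22 and 3.84 CPM in P35_23. In P35_23 Zfp97 was at 2.26 CPM in CX and 1.67 CPM in CB. Wif1 in CX was at 0.715 CPM in P35_22 and 0.730 CPM in P35_23, and in HIP it was at 0.506 CPM in P35_22.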
